A study of Mus musculus with 2 samples.

Results

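The genes described here are 10 genes of polycystic kidney disease and their relatives, measured by total RNA-seq in embryonic mouse kidney. Pkd1, Pkd2, Pkhd1, Pkd1l1, Pkd1l3, Pkd2l1, Bicc1, Glis2, Ganab and Dnajb11 were taken from a fixed list and found by Ensembl identifier in both the gene and the transcript tables, so 10 of 43346 mouse genes are members, with 30 annotated transcripts. The tissue was whole kidney from B6NCrl embryos of mixed sex at 16.5 days of development, and the labels name no treatment, genetic change or second tissue. The samples form 1 group of 2 biological replicates, each from pooled embryos: 41 embryos for replicate 2, and for replicate 1 a number that the labels leave out. Each library was made from 10 ng of RNA. With 1 group there is no contrast of conditions, and an exact two-sided test over 2 paired libraries cannot give a p below 0.5, so levels, transcript shares and the spread between the 2 pools are given without tests. That spread holds both the difference between pools and any technical difference between the libraries.

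Polycystic kidney disease turns renal tubules and ducts into fluid-filled cysts. Pkd1 and Pkd2 encode polycystin-1, a very large receptor-like membrane protein, and polycystin-2, a cation channel of the TRP family. The proteins form a complex found on primary cilia and in other membranes, and loss of either gives the dominant form of the disease. Pkhd1 encodes fibrocystin, a large single-pass membrane protein of cilia in collecting ducts and bile ducts, whose loss gives the recessive form. Ganab and Dnajb11 act in the endoplasmic reticulum (ER), where polycystin-1 is folded and glycosylated, and variants in either gene cause milder or atypical dominant disease. Bicc1 is an RNA-binding protein and Glis2 a zinc finger transcription factor, and loss of them gives cystic kidneys and nephronophthisis, respectively.

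For Pkhd1 and Bicc1 the transcript with the highest share of the gene depended on the unit, so the places where their leading transcripts part are shown. The sequences are from the GENCODE M21 transcripts on GRCm38, both genes lie on the minus strand, and each line holds 60 bases, the 30 before the split, shared by the pair, in lower case and the 30 that follow next in that transcript in capitals. In Pkhd1 the shared bases, at chr1:20593911-20593940, end exon 6. Pkhd1-201, the coding transcript with 67 exons, goes on in the next exon at chr1:20588534-20588563, whereas Pkhd1-204, annotated as a retained intron, reads on into intron sequence at chr1:20593881-20593910 and ends 958 bases after the split.
Pkhd1-201: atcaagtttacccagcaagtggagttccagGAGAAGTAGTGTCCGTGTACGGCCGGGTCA
Pkhd1-204: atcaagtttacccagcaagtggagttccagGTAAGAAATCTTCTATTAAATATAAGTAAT
In Bicc1 the shared bases, at chr10:70930591-70930620, end exon 20. Bicc1-201 goes on at chr10:70927765-70927794 with an exon of 80 bases that Bicc1-203 skips, and its coding sequence ends there after 53 bases. Bicc1-203 joins exon 20 directly to its last exon at chr10:70925349-70925378 and has 131 further coding bases, so the encoded proteins differ at the C-terminal end. The bases in capitals for Bicc1-203 are also in Bicc1-201, in its exon 22 and beyond its coding sequence, so the difference lies in what follows exon 20 and not in those bases themselves.
Bicc1-201: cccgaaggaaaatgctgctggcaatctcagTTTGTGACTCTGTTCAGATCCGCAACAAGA
Bicc1-203: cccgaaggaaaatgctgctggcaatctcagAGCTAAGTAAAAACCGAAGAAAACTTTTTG

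**Figure D1:**
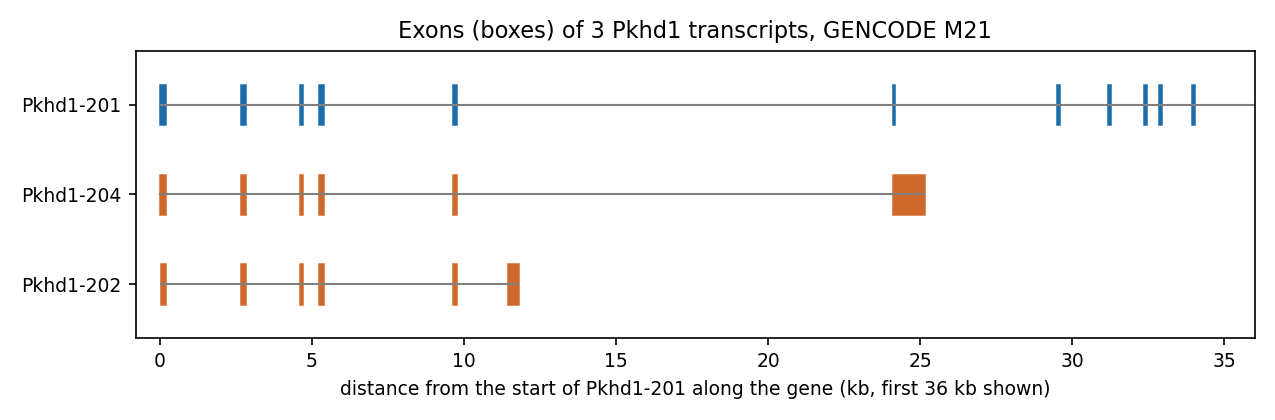
Exons of 3 Pkhd1 transcripts as boxes, against the distance in kb from the start of Pkhd1-201, over the first 36 kb of the gene. Pkhd1-204 and Pkhd1-202 share the early exons with Pkhd1-201. Pkhd1-204 ends where exon 6 runs on into the intron and Pkhd1-202 in an exon of its own, while Pkhd1-201 continues to the right through its 67 exons.

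Estimated counts summed over mouse genes to 34261328 in replicate 1 and 37900132 in replicate 2. Levels are given in TPM, a unit that divides counts by transcript length and scales each library to the same sum, spike-ins included. Effective length is the length over which reads could start, and for a gene with 2000 nt of it, 10 counts were worth 0.218 TPM in replicate 1 and 0.201 in replicate 2. Of 15 short marker lists, the 7 for nephron progenitors, podocytes, proximal tubule, loop of Henle, distal tubule, collecting duct and stroma had all their genes at 1 TPM or more in both libraries. So did the lists for endothelium, macrophages, red cells, liver, adrenal and neurons, and only gonad and skeletal muscle fell short. Of all protein-coding genes, 62.2% reached that level. Markers of muscle, nerve, adrenal and gonad were also present, and 4 of these 12 genes moved past 2-fold between the pools, beside 2.35% of all 15363 genes compared. Foxl2, Dmrt1 and Myod1, among the 12, had too few counts to be compared. The 3 liver markers were all at 1 TPM or more in both libraries, and 0 of them passed 2-fold. Summed over 3 genes a list, skeletal muscle stood at 71.3 and 160.5 TPM, through Acta1 (48.3 and 139), while Mylpf stood at 22.4 and 21.2 and Myod1 at 0.57 and 0.69. The 3 neuron genes were all lower in replicate 2 (summed 29.2 and 19.3 TPM), with Snap25 past 2-fold (2.29 and 1.03). The adrenal sum of 63.5 and 79.3 TPM held Cyp11a1 (20.6 and 38.5) and Cyp21a1 (31.5 and 35.4), higher in replicate 2, and Th (11.5 and 5.49), higher in replicate 1 and past 2-fold. Of the gonad genes, Insl3 stood at 1.08 and 6.46 TPM, past 2-fold, and Foxl2 and Dmrt1 had no counts. Their part in the levels below was not tested. In a whole organ, fewer cells of a type and less RNA per cell cannot be told apart.

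Of the 10 genes, 7 were detected, meaning at least 1 TPM in both libraries, beside 62.2% of all protein-coding genes (13352 of 21474). The genes for the ER proteins were highest, Bicc1 and Glis2 followed, the disease genes Pkd2, Pkd1 and Pkhd1 were lower, and Pkd1l1, Pkd1l3 and Pkd2l1 were under 1 TPM. The median of the 10 was 10.9 TPM in replicate 1 and 10.4 in replicate 2, against 5.43 and 5.46 for all protein-coding genes. The plot of levels by library shows that the steps between these tiers were wider than the distance between the libraries. The lower and upper bounds the authors deposited cover the estimation within 1 library, not the spread between pools.

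**Figure D2:**
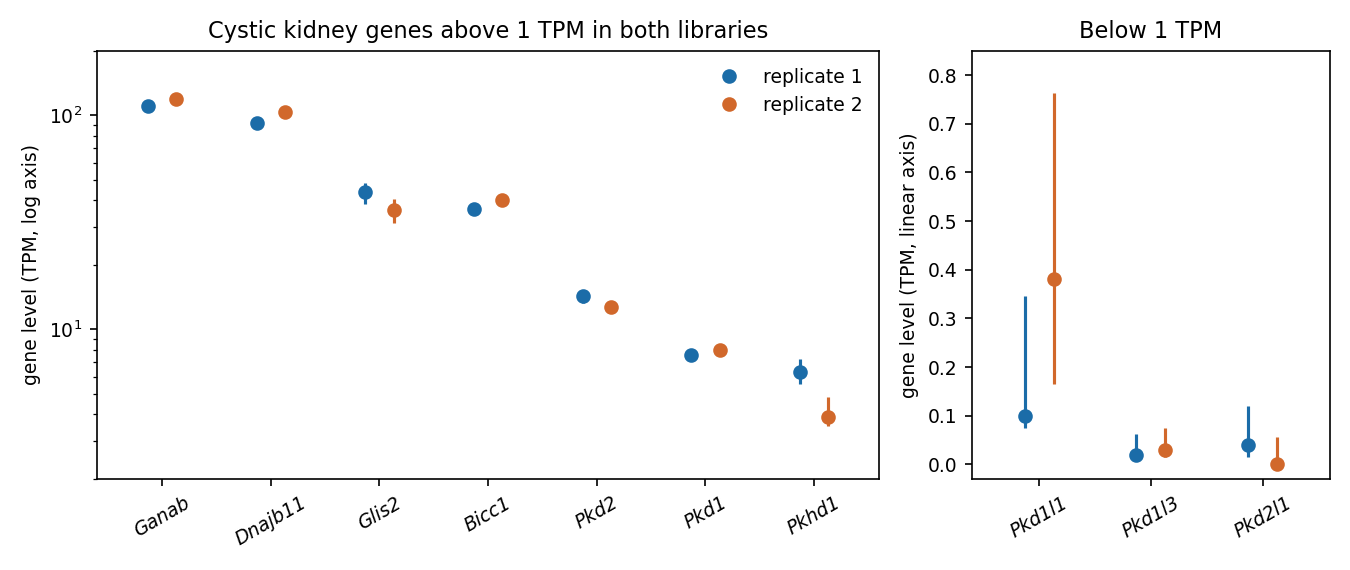
Level of each gene in TPM in replicate 1 and replicate 2 (points), with the lower and upper bounds that the authors deposited for each library (lines); the left axis is logarithmic and the right axis linear. Ganab lies at 110 and 118 TPM and Pkhd1 at 6.30 and 3.91, and Pkd1l1, Pkd1l3 and Pkd2l1 lie below 1 TPM.

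Both polycystin genes of the dominant disease were expressed at moderate levels, with Pkd2 above Pkd1 per length. Pkd1 (ENSMUSG00000032855, chr17:24549834-24596508, plus strand) stood at 7.60 TPM in replicate 1 and 8.04 in replicate 2, a mean of 7.82 ± 0.311 (SD, n = 2). Pkd2 (ENSMUSG00000034462, chr5:104459450-104505819, plus strand) stood at 14.25 and 12.74 TPM, a mean of 13.5 ± 1.07 (SD, n = 2). The values of Pkd2 lay above those of Pkd1 in both libraries, and neither library's deposited bounds overlapped, 7.11 to 7.70 against 13.3 to 14.6 in replicate 1 and 7.56 to 8.15 against 11.9 to 13.1 in replicate 2. Per length, the ratio of Pkd2 to Pkd1 was 1.88 in replicate 1 and 1.58 in replicate 2. In counts the order was the other way, with 2453.93 and 2820.45 estimated counts for Pkd1 against 1656 and 1610 for Pkd2, since the single Pkd1 transcript in the tables is 14170 nt long. Restricted to transcripts annotated as coding, the ratio of Pkd2 to Pkd1 was 1.68 and 1.45. Pkd1 stood at the 54.2 percentile of protein-coding genes by mean TPM and Pkd2 at the 61.8 percentile.

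Fibrocystin was the lowest of the 3 main disease genes, and its level depended on which transcripts were included. Pkhd1 (ENSMUSG00000043760, chr1:20057779-20618064, minus strand) had nearly equal counts, 697 in replicate 1 and 676 in replicate 2, yet its gene level was 6.30 TPM in replicate 1 and 3.91 in replicate 2 (mean 5.11 ± 1.69, SD, n = 2). The deposited bounds of the gene level, 5.53 to 7.29 and 3.52 to 4.81, did not overlap between the libraries. The effective length that turns counts into TPM is a weighted mean over the transcripts of a gene, and for Pkhd1 it was 4820 nt in replicate 1 and 6942 nt in replicate 2. The coding transcript Pkhd1-201, of 12935 nt, stood at 1.87 TPM in both libraries, with bounds of 1.67 to 1.98 and 1.67 to 1.97. All of the difference in gene TPM therefore lay in transcripts with no coding annotation. Pkhd1-204, the retained intron shown above, stood at 3.78 TPM and 2.04 TPM, with bounds of 2.96 to 4.39 and 1.41 to 2.47. Pkhd1-202, a processed transcript of 921 nt, stood at 0.65 TPM from 12.28 counts in replicate 1 and at 0 in replicate 2, where the deposited upper bound was 0.830.

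The 2 units named different leading transcripts for Pkhd1. By share of TPM, Pkhd1-204 led with 59.96% in replicate 1 and 52.16% in replicate 2, and Pkhd1-201 held 29.71% and 47.84%. By share of counts, Pkhd1-201 led with 79.1% and 88.5%, from 551.47 and 597.93 counts, and Pkhd1-204 held 19.1% and 11.5%, from 133.25 and 78.07 counts. The 133.25 counts of Pkhd1-204 weigh more per length because the transcript has 1636 nt. Using coding transcripts only, the ratio of Pkhd1 to Pkd1 was 0.246 in replicate 1 and 0.233 in replicate 2, whereas with whole gene levels it was 0.829 and 0.486. Transcripts without coding annotation took 70.3% and 52.2% of the TPM of Pkhd1, against 12.4% and 11.5% of the TPM of all protein-coding genes, and 20.9% and 11.5% of its counts against 7.05% and 6.44%.

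The other polycystin relatives among the 10 genes were at or near the limit of detection. Pkd1l1 (ENSMUSG00000046634, chr11:8826708-8973266, minus strand), which works with polycystin-2 in the cilia that set left-right asymmetry, had 16 and 28 counts and stood at 0.10 and 0.38 TPM. Its coding transcripts together stood at 0.10 and 0.16 TPM, and the rest in replicate 2 was Pkd1l1-202, a processed transcript of 676 nt with 3.17 counts. The transcript of Pkd1l1 with the highest mean share, Pkd1l1-203, held 46.19% in replicate 1 and 34.83% in replicate 2, from 6.57 and 20.04 counts. It led by TPM in neither library: Pkd1l1-201 held 53.81% in replicate 1 and Pkd1l1-202 held 58.41% in replicate 2. Pkd1l3 (ENSMUSG00000048827, chr8:109614517-109674386, plus strand), a polycystin of taste cells, had 3 and 5 counts, or 0.02 and 0.03 TPM, all assigned to Pkd1l3-201. Pkd2l1 (ENSMUSG00000037578, chr19:44147637-44192442, minus strand), a channel of taste cells and of neurons that contact cerebrospinal fluid, had 3 counts in replicate 1, 0.04 TPM, and 0 in replicate 2, all on Pkd2l1-201. At the depth of replicate 2, the limit that a count of 0 allows (3 counts) was 0.0362 TPM for Pkd2l1. Such limits and the low values cover counting error only, and no difference between Pkd1l3 and Pkd2l1 was detectable at this depth.

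The genes of ER folding had the highest levels of the 10. Ganab (ENSMUSG00000071650, chr19:8898071-8916672, plus strand), the catalytic subunit of glucosidase II that trims glucose from new glycoproteins, stood at 110.13 TPM in replicate 1 and 118.39 in replicate 2, a mean of 114 ± 5.84 (SD, n = 2). It was at the 93.2 percentile, from 9515 and 11107 counts on a single transcript of 3862 nt. Dnajb11 (ENSMUSG00000004460, chr16:22857845-22879634, plus strand), a co-chaperone of the ER chaperone BiP, stood at 91.88 and 102.98 TPM, a mean of 97.4 ± 7.85 (SD, n = 2), at the 92.0 percentile. Ganab exceeded Dnajb11 in both libraries, by ratios of 1.199 and 1.150. Prkcsh, which encodes the partner subunit of glucosidase II and is itself a gene of polycystic liver disease, stood at 125 and 132 TPM, so the ratio of Ganab to Prkcsh was 0.879 and 0.895. Hspa5, which encodes BiP, stood at 803 and 913 TPM, and the ratio of Dnajb11 to Hspa5 was 0.114 and 0.113. The deposited TPM of Ganab lay just above the authors' upper bounds, 109.6 and 117.8, because the bounds bracket a posterior mean and not the deposited TPM.

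Bicc1 and Glis2 stood between the ER genes and the polycystins. Bicc1 (ENSMUSG00000014329, chr10:70922832-71159700, minus strand) stood at 36.43 TPM in replicate 1 and 40.09 in replicate 2, a mean of 38.3 ± 2.59 (SD, n = 2). Glis2 (ENSMUSG00000014303, chr16:4594713-4624924, plus strand) stood at 43.58 and 36.22 TPM, a mean of 39.9 ± 5.20 (SD, n = 2). Their values overlapped over the libraries, with Glis2 above Bicc1 in replicate 1 and below it in replicate 2, so the pair could not be ordered. They lay at the 79.5 and 80.2 percentiles of protein-coding genes.

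Ordered by mean TPM the genes ran Ganab, Dnajb11, Glis2, Bicc1, Pkd2, Pkd1, Pkhd1, Pkd1l1, Pkd1l3 and Pkd2l1. Of the 9 neighbouring pairs in that order, 7 had values that did not overlap over the libraries, and the other two were Glis2 with Bicc1 and Pkd1l3 with Pkd2l1. Pkd1 and Pkhd1 counted as apart, but in replicate 1 the deposited bounds of Pkd1 (7.11 to 7.70) and Pkhd1 (5.53 to 7.29) overlapped. With coding transcripts only, the same number of pairs, 7, stood apart. The mean of Bicc1 (37.25 TPM) then lay above that of Glis2 (33.5 TPM), and the values of this pair still overlapped.

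Transcript shares were compared for the 5 detected genes with several transcripts. A share here is a transcript's percent of its gene's TPM, as deposited. The leading transcript, the one with the highest mean share, was the same in both libraries for all 5, so it differed in 0 of 5, beside 8.48% of 10194 genes with several transcripts detected in these libraries (864). Its share moved by more than 20 percentage points in 0 of 5, beside 5.22% of those genes (532). From replicate 1 to replicate 2 the leading share changed by 9.81 points for Glis2, 8.20 for Bicc1, 2.32 for Pkd2, 2.07 for Dnajb11 and -7.80 for Pkhd1. The direction depended on the unit for Pkhd1 and Bicc1. By share of counts, the leader of Pkhd1, Pkhd1-201, changed by 9.33 points and that of Bicc1, Bicc1-203, by -2.78. Glis2, Pkd2 and Dnajb11 rose in both units. These directions were not compared with those of all genes.

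Bicc1 was split between the 2 coding transcripts shown above. Bicc1-201, of 3231 nt, held 46.71% in replicate 1 and 54.91% in replicate 2, at 17.02 and 22.02 TPM. Bicc1-203, of 5431 nt, held 45.35% and 42.73%, at 16.52 and 17.13 TPM. In replicate 1 their deposited bounds overlapped, 12.2 to 18.6 for Bicc1-201 and 15.1 to 17.2 for Bicc1-203, and in replicate 2 they did not, 18.7 to 22.9 against 15.7 to 17.8. By counts Bicc1-203 led in both libraries, with 58.8% and 56.01%. A further coding model, Bicc1-202, of 3005 nt, held 120.72 counts, or 4.97% of the gene's TPM, in replicate 1 and none in replicate 2. Its deposited bounds were wide, 0.00957 to 5.86 TPM in replicate 1, and overlapped those of replicate 2, where the upper bound was 2.18.

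Glis2 was led by its full-length coding transcript. Glis2-201, of 3619 nt, held 59.10% and 68.91% of the TPM and 80.6% and 87.7% of the counts, at 25.76 and 24.96 TPM. A coding model of only 418 nt, Glis2-205, held 25.06% and 14.54% of the TPM, at 10.92 and 5.27 TPM, but from 80 and 41.9 counts. Its deposited bounds were wide, 5.998 to 15.5 and 0.867 to 9.76, and overlapped between the libraries. The retained intron Glis2-202 fell outside the share at which transcripts are named by rule, and held 396.36 and 215.53 counts, or 11.61% and 6.99% of TPM. The 5.20 SD of the Glis2 gene level thus lay mostly outside Glis2-201, whose values had an SD of 0.566 TPM. With coding transcripts only the SD was still 4.56 TPM, and the short coding model Glis2-205 had an SD of 3.995 TPM.

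**Figure D3:**
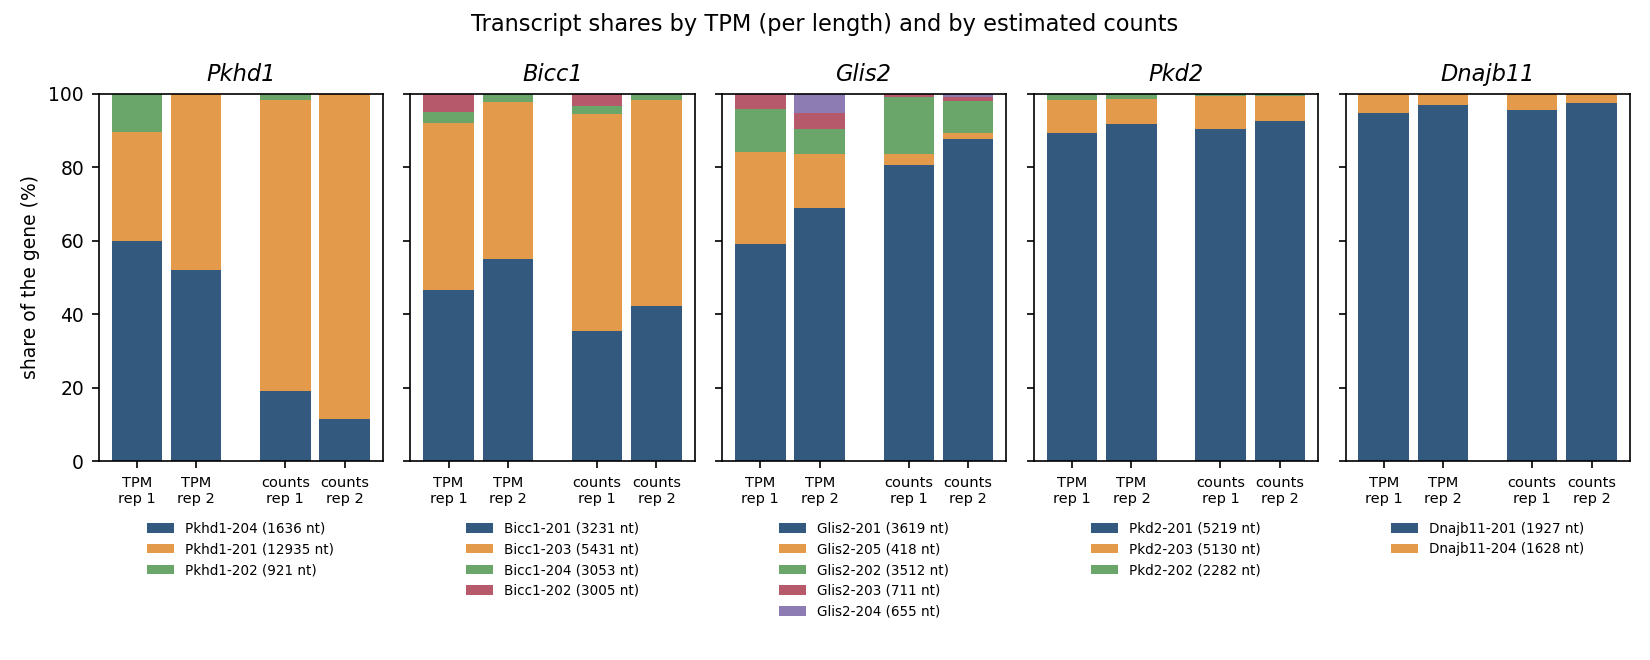
Share of each gene held by each of its transcripts (stacked, in percent), by TPM and by estimated counts, in replicate 1 and replicate 2. For Pkhd1 the short Pkhd1-204 fills 59.96% and 52.16% of the TPM bars but 19.1% and 11.5% of the count bars, and Pkd2-201 and Dnajb11-201 fill most of every bar of their genes.

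Pkd2 and Dnajb11 were held almost whole by 1 coding transcript each. Pkd2-201, of 5219 nt, held 89.37% in replicate 1 and 91.69% in replicate 2. The remainder was mostly the retained intron Pkd2-203, with 8.92% and 6.73% from 146.79 and 107.52 counts. Dnajb11-201, of 1927 nt, held 94.75% and 96.82%, and Dnajb11-204, also coding, held the other 5.25% and 3.18%. For these genes the level was nearly the level of the leading transcript, 12.73 and 11.68 TPM for Pkd2-201 and 87.05 and 99.70 TPM for Dnajb11-201. Pkd1 and Ganab had 1 transcript each in the tables and give no shares.

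None of the 7 detected genes differed by 2-fold in counts between the pools. On the scale of log2 count ratios, replicate 2 over replicate 1 after TMM scaling (a correction for library size and composition), the 7 detected genes, which all averaged 1 CPM or more (counts scaled to library size), lay between -0.18 and 0.16, and 0 of 7 passed 2-fold, beside 2.35% of all 15363 genes compared (361). Dnajb11 (0.16), Bicc1 (0.11), Ganab (0.09) and Pkd1 (0.07) were higher in replicate 2. Glis2 (-0.18), Pkhd1 (-0.17) and Pkd2 (-0.17) were higher in replicate 1. Among all genes the lower quartile of the log2 ratio was -0.13 and the upper quartile 0.10, so these values lie between or just outside the quartiles. By size of the ratio regardless of sign, the genes ranged from the 34.4 percentile for Pkd1 to the 68.3 percentile for Glis2. The direction of 3 of these genes depended on the scaling: with the libraries scaled to the spike-ins, which took 2.82% and 2.08% of counts, the median of all genes moved to 0.43 and all 7 were higher in replicate 2, although Glis2 (0.25), Pkhd1 (0.26) and Pkd2 (0.26) still lay below that median. With 1 pool on each side, these ratios have no replicate check.

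**Figure D4:**
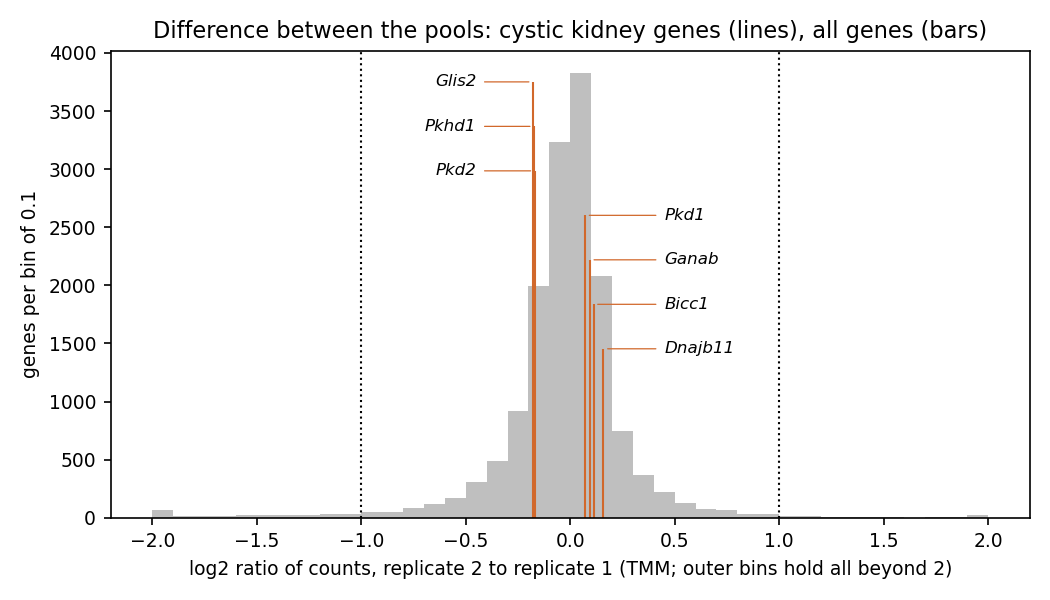
Number of genes per bin of the log2 ratio of counts in replicate 2 to replicate 1 (bars, TMM scaling), with the 7 cystic kidney genes as lines and dotted lines at 2-fold. The 7 lines lie between -0.18 and 0.16.

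Exons of 5 of the 10 genes overlap exons of another gene, always on the opposite strand, and whether the counting used strand was not given in the sources used here. Pkd1 lies tail to tail with Tsc2, a tumor suppressor gene whose joint loss with Pkd1 is known from a severe contiguous deletion syndrome. They share 693 of the 17415 exonic bases of Pkd1, and Tsc2 stood at 31.07 and 30.31 TPM. Glis2 shares 455 of 4373 exonic bases with Pam16, which stood at 47.95 and 58.87 TPM. Pkd1l3 shares 190 of 7061 with Ist1, at 124 and 126 TPM, far above the 0.02 and 0.03 TPM of Pkd1l3 itself. The antisense genes over Pkhd1 (208 bases) and Bicc1 (349 bases) stood at 0 and at 0.12 and 0.20 TPM. Gene counts of Pkd1 and Bicc1 were not whole numbers in these tables, while those of the other 8 were. In each library the counts of Pkd1 (2453.93 and 2820.45) and Tsc2 (4222.07 and 4472.55) added to a whole number. Those of Bicc1 (3440.77 and 4066.27) and its antisense gene (3.23 and 5.73) did too. Reads were thus divided between the genes of each of these pairs, although they lie on opposite strands. How much this division changed the level of Pkd1 was not tested.

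The wider gene lists held 45 genes, of which 35 were not among the 10. Of the 35, 32 were detected, beside 62.2% of all protein-coding genes. Of the 32 with enough counts for a ratio, 1 passed 2-fold between the pools, beside 2.35% of all 15363 genes compared. The median of the 35 was 22.9 TPM in replicate 1 and 25.1 in replicate 2, against 5.43 and 5.46 for all protein-coding genes. Of 8 polycystin family genes, 3 were detected: Pkd2, Pkd1 and Pkd2l2, a testis-enriched relative, at 1.46 and 1.71 TPM. Of the 2 fibrocystin genes Pkhd1 alone was detected, and its relative Pkhd1l1 had 1 and 5 counts. All 16 genes of ER folding and glycosylation were detected, with a median of 85.03 and 95.5 TPM. Calr (936 and 990 TPM), the lectin chaperone calreticulin, and Hspa5 led that list, and Sec63 (23.8 and 25.1 TPM), a translocon partner mutated in polycystic liver disease, and Mogs were lowest.

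Mogs was the gene that passed 2-fold. It encodes glucosidase I, which acts on the same glycan directly before the enzyme of Ganab. It had 498 counts in replicate 1 and 1901 in replicate 2, or 8.68 and 29.22 TPM, a log2 count ratio of 1.80, while Ganab had a ratio of 0.09 and Prkcsh of 0.07.

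All 9 genes of the list of Bicc1 and Glis partners and relatives were detected. Anks3, which encodes a protein that binds Bicc1, stood at 38.75 and 42.36 TPM, close to the 36.43 and 40.09 TPM of Bicc1. Anks6, in the same list, stood well below Bicc1, at 5.79 and 5.26 TPM. Glis2 stood far above its relatives Glis1, at 3.75 and 4.23 TPM, and Glis3, at 8.09 and 7.51 TPM. All 10 other cystic kidney genes were detected too, with medians of 19.2 and 19.9 TPM. The von Hippel-Lindau gene Vhl stood at 27.79 and 33.61 TPM. The lowest were the Wnt co-receptor gene Lrp5, at 5.69 and 5.90 TPM, and Umod, the uromodulin gene of the loop of Henle, at 6.75 and 8.48 TPM.

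**Figure D5:**
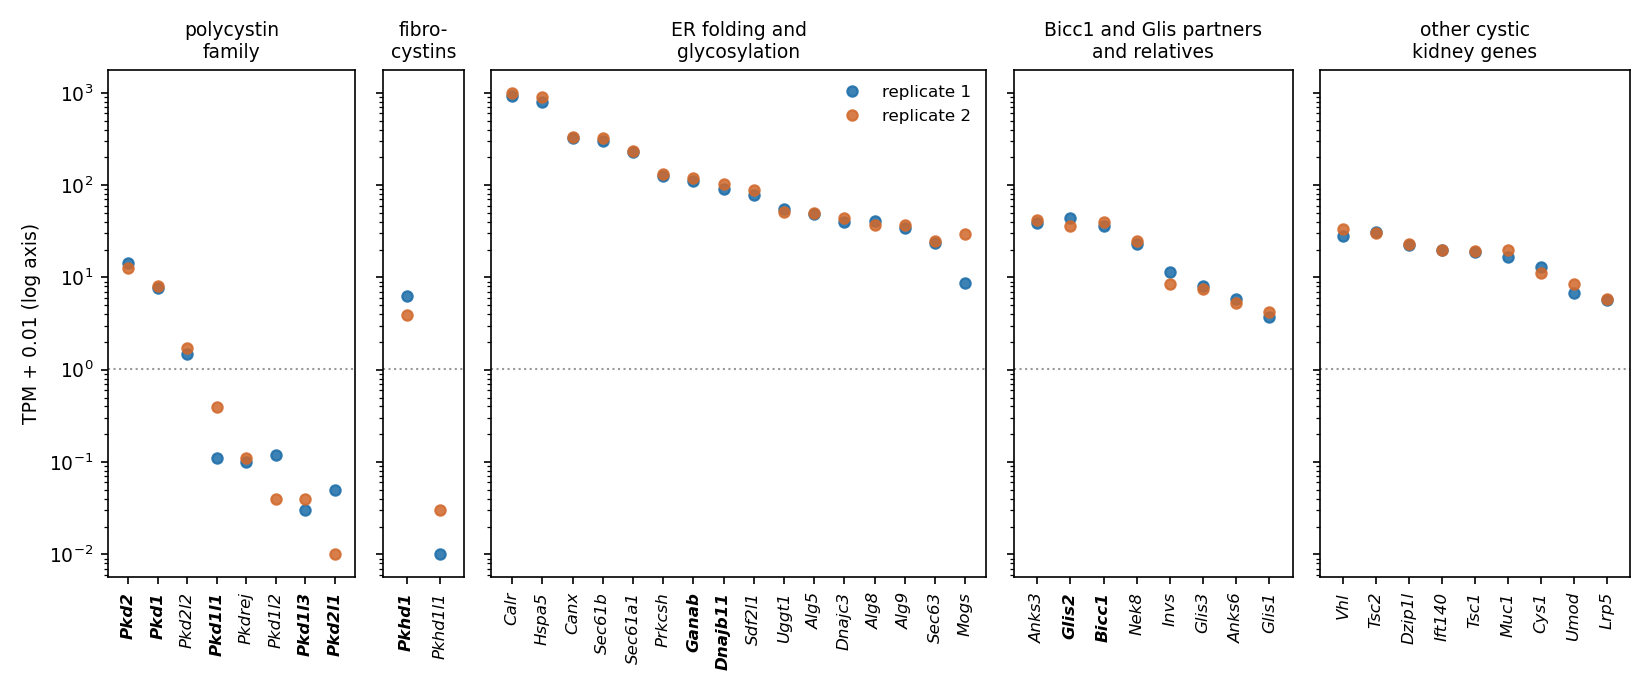
Level of 43 of the 45 listed genes in TPM + 0.01 on a logarithmic axis in replicate 1 and replicate 2, by list, with the 10 cystic kidney genes in bold and a dotted line at 1 TPM. All 16 genes of ER folding lie above the line and 5 of 8 polycystin family genes below it, and Mogs shows the widest gap between libraries among the detected genes.

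Promoter windows of 250 bases before to 50 after the start were available from RefSeq (GRCm38.p6), and 7 of the windows belonged to the 10 genes. In all windows 4 short motifs, chosen after the windows were seen, were searched on both strands. The window of Dnajb11 held ATTGG, any base, then CCACG, the ERSE-II element through which ER stress factors act, 7 nt after the start, a motif present in 12 of 32851 windows (0.0365%). The few windows that hold it are the reason it is shown, in capitals, at chr16:22857843-22857871 on the plus strand. The ATTGG of the motif is CCAAT read on the other strand, so every match overlaps a CCAAT box by definition.
Dnajb11 promoter: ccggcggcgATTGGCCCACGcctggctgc
The related ERSE motif, CCAAT and CCACG with 9 bases between them, was in 39 windows (0.119%) and in none of the 7 windows of the cystic kidney genes, but in 4 of the 15 ER genes with a window: Calr, Canx, Dnajc3 and Hspa5. The GC box GGGCGG was in the windows of Pkd1, Ganab and Dnajb11 and in 35.7% of all windows, and CCAAT was in those of Pkd1l3, Ganab and Dnajb11 and in 37.4% of all. A match describes letters only, and no binding was measured.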

How the data were processed

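Total RNA over 200 nt from 2 pools of embryonic kidney was extracted with a mirVana kit, and a SMARTer Ultra Low manual and external spike-ins are among the protocols, per the labels. Values refer to mm10 and annotation M4, per the file headers and notes. Aligner, quantifier and use of strand were not given in the sources used here. The authors deposited expected counts (estimated counts that need not be whole), TPM scaled to length and library, FPKM, and the percent of each transcript within its gene. The deposited posterior mean TPM and its lower and upper bounds are treated as a signal; the bounds cover estimation within 1 library, and their confidence level was not given there.

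The 10 genes and all lists were chosen with earlier results of these data known. Names, gene types, exons and positions came from GENCODE M21 on GRCm38 by identifier (42462 of 43346 mouse genes), and M4 models can differ. With edgeR 4.0.16 under R 4.3.3, expected counts were rounded, scaled by TMM and turned into log2 ratios with a prior count of 2 for genes with a mean CPM of at least 1; past 2-fold was called. Library sizes were summed over mouse genes (spike-ins took 2.82% and 2.08% of counts). DESeq2 1.42.0 size factors were an alternative. Tables used Python 3.11.15 with pandas 2.3.3 and numpy 2.4.6, and figures matplotlib 3.10.9. The libraries were compared as separate samples: 814 of 23900 entries above 0 had the same count in both.

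Named by rule were the 10 genes, their transcripts with a mean share of at least 10% (under 1 TPM, the leading one), the 2 highest and 2 lowest genes of each list, and any gene past 2-fold, of which a few are not reported here. Pkd2l2, Prkcsh, Canx, Dnajc3, Anks6, Glis3, the overlapping genes, the motifs and transcripts with smaller shares were chosen after their values were seen. On simulated counts for the comparison of the pools (15349 genes in the step), 100% of 99 genes changed 4-fold, 7.07% of 99 changed 1.5-fold and 0.337% of 15151 unchanged genes passed 2-fold. The simulation gave every gene the same added spread between libraries. In the data 2.35% of 15363 genes passed 2-fold, so the simulated 0.337% is not an error rate for these pools. Alternatives covered detection unit and threshold, scaling, filter, prior count, pseudocount, unit, the 2 libraries singly and, added after seeing the data, coding transcripts only.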

Additional observations from a re-analysis of the deposited data

How the results depend on the processing

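No paired analysis was possible because the labels give 1 group. The median level of the 10 genes (10.7 TPM) ranged from 10.4 to 10.9 over leaving out either library, and moved to 11.3 both with FPKM rescaled and with TPM rescaled to mouse genes, which leaves spike-ins out of the sum, and to 10.0 with coding transcripts only. The median lies between Pkd2 and Pkd1. With coding transcripts only, Pkd2 fell from 13.5 to 12.2 TPM and Pkd1 stayed at 7.82. Pkhd1 fell too, from 5.11 to 1.87 TPM, but lay below the median in both settings. With no filter on low counts, 1 of the 10 genes passed 2-fold in place of 0: Pkd2l1, with 3 and 0 counts, too few for a fold. Over all genes, 2521 of 25149 (10.0%) then passed 2-fold, against 361 of 15363 with the filter, 110 of 12310 at a mean CPM of 5, 243 with TPM and a pseudocount of 1 and 204 of 13911 with coding transcripts only. The other alternatives left 0 of the 7 genes compared past 2-fold. Detection gave 7 of 10 genes under each alternative except 10 counts in both libraries, which gave 8 with Pkd1l1, and 39 of 45 listed genes except at 2 TPM, which gave 38. By posterior mean TPM, 4 of 5 leading transcripts were the same in both libraries: the share of Pkhd1-204 was 57.26% and 46.29%. Depth limits Pkd1l1, Pkd1l3 and Pkd2l1 and the short transcripts, whose values rest on few counts.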
